A study of Homo sapiens with 2 samples.

Results

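The aquaporin genes encode the membrane channels through which water, and in some members glycerol, crosses cell membranes. Their members were taken as the transcript clusters (the probe groups of the array) whose symbol in the platform's probe table is AQP followed by a digit and whose RefSeq gene type is protein-coding. This gave 12 genes in 13 clusters, of 11916 named protein-coding genes and 53617 clusters in all. RefSeq lists 14 protein-coding AQP genes, and the other 2, AQP6 and AQP7B, were not analysed here. The family was chosen by its differences between these same 2 arrays, which an earlier scan of gene families had placed high, and its members were divided by their levels on them. Every level and difference below is therefore a description, and none is tested.

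RNA came from MDA-MB-231, an established human breast cancer cell line. One group received an antagomir of miR-544, an oligonucleotide that blocks this microRNA, and the other group received compound 1, a code-named compound aimed at that microRNA too. Both groups share the culture that followed 24 hours later, 5 days in less than 1% oxygen, and arrays of cells in normal oxygen or without an agent were not analysed here. The design text speaks of 3 samples that were pooled, and each treatment was read on 1 array, so there is no replicate error and treatment, pool and hybridisation cannot be told apart. The array medians were 5.59 (antagomir) and 5.62 (compound 1) on the log2 scale. Of 8 markers of this cell line 5 were measured, with mean levels from 9.06 (CD44) to 12.77 (AXL). Of 7 luminal breast markers 6 were measured. The hormone receptor genes ESR1 and PGR had mean levels of 5.26 and 4.77. The others were FOXA1 (5.53), EPCAM (6.98), GATA3 (7.36) and KRT19 (8.91).

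Aquaporins sit in the membrane as tetramers of pores, each pore with its own water path, and carry water along osmotic gradients. The orthodox members pass mainly water, the aquaglyceroporins also pass glycerol and other small solutes, and the unorthodox members AQP11 and AQP12 lie mostly inside the cell. Most members are known for a few tissues, such as kidney, glands, brain, fat and liver, and some also pass hydrogen peroxide.

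Both agents are aimed at a microRNA named only as miR-544. RefSeq holds 2 mature sequences of that number, on GRCh38.p14, shown here because the labels do not say which is meant. Capitals mark the seed, bases 2 to 8. The seeds differ.
hsa-miR-544a: aUUCUGCAuuuuuagcaaguuc
hsa-miR-544b: aCCUGAGGuugugcauuucuaa
Whether an aquaporin transcript holds a match to either seed was not examined here.

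Most aquaporin genes gave a low signal in both groups. The dividing level was the median of the mean cluster levels, a log2 signal of 5.60, and a gene counted as above it when its higher array reached that value. Of the 12 genes 9 did, against 80.4% of all protein-coding genes. Their signals ran up to the mean level of 7.20 in AQP2, whereas the median of protein-coding genes was 7.08 on the antagomir array against 7.04 on the compound 1 array. With the median over protein-coding genes as the line, only 2 aquaporins, AQP2 and AQP12A, reached it on their higher array. AQP12A did so by its compound 1 value of 7.21, while its mean level of 7.03 stood at percentile 49.3 of protein-coding genes. The nearest members on either side of 5.60 were AQP8, with a mean level of 6.20, and AQP7, with 5.23. The order of the clusters is one of signals and not of RNA amounts, since probes differ in how strongly they bind.

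Some marker genes of cell types other than breast cancer cells also gave signals of this size, though most were dimmer than the aquaporins above the dividing level. Of 36 markers of adipocytes, endothelium, leukocytes, erythroid cells, keratinocytes and kidney collecting duct, 19 were measured, and their median mean level was 5.44. Of the 19 markers 9 reached the dividing level, against 9 of the 12 aquaporins. Mean levels at or above that of AQP8 were found in 4 of the 19, of which CD68 was brighter than any aquaporin. These were the lysosomal protein gene CD68 (11.60), the growth factor receptor gene KDR (6.97), the red cell membrane protein gene EPB42 (6.57) and FXYD4 (6.52), which encodes a regulator of the sodium pump in the collecting duct. Of the 19 markers 12 were higher on the compound 1 array, with a median difference of 0.068. In single lists with few measured genes the median was 0.24 for 2 leukocyte, 0.16 for 5 keratinocyte and 0.13 for 3 collecting duct genes. It was 0.088 for 4 endothelium, 0.021 for 1 erythroid and -0.047 for 4 adipocyte genes. The median of the aquaporins, given below, lies within this range only through the 2 leukocyte genes, LYZ (0.48, below the dividing level) and CD68 (-0.01). It lies above the median of every other list. A signal above 5.60 alone does not show that a gene was transcribed.

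**Figure D1:**
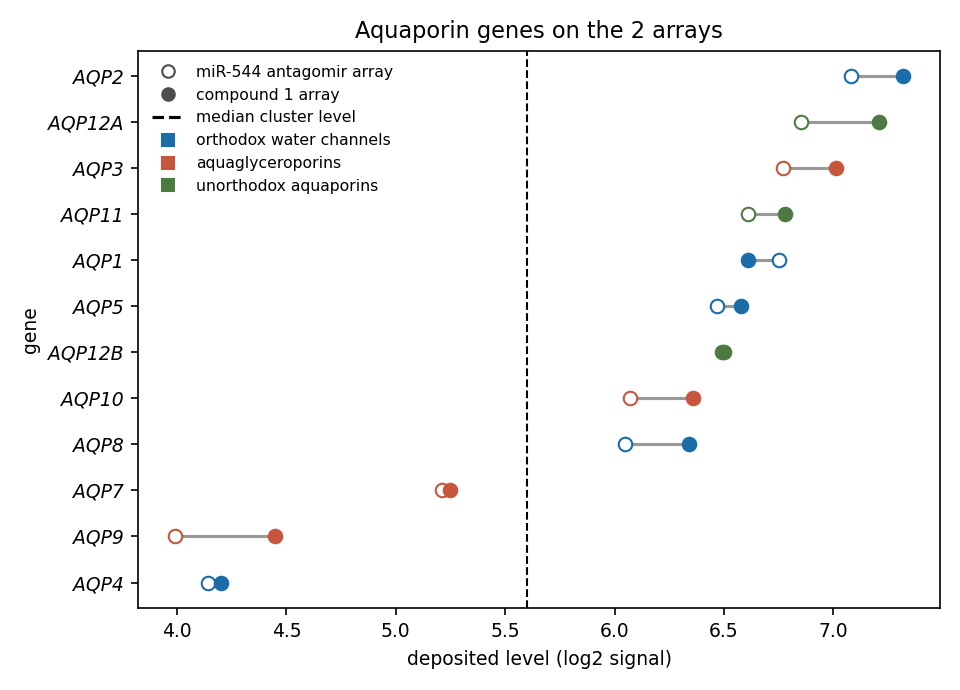
Deposited log2 signal (x axis) of each aquaporin gene (y axis) on the antagomir array (open circles) and the compound 1 array (filled circles), 1 array each, with colours for the 3 subfamilies and a dashed line at the median cluster level of 5.60. The compound 1 value is the higher in 11 of 12 genes (10 after centring or quantile normalization, 9 after cyclic loess), AQP1 being the exception, and AQP4, AQP7 and AQP9 lie left of the line.

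The signals were higher on the compound 1 array in 11 of the 12 genes, and in 10 after centring or quantile normalization and 9 after cyclic loess. Of all protein-coding genes 44.1% were higher on that array as deposited, 38.3% after centring, 51.1% after quantile normalization and 48.9% after cyclic loess. The median difference, compound 1 minus antagomir, was 0.20 on the log2 scale over the aquaporins and -0.023 over all protein-coding genes. After centring, quantile normalization and cyclic loess the aquaporin median was 0.17, 0.22 and 0.21, and that of all protein-coding genes -0.052, 0.0052 and -0.0054. Over the 9 aquaporins above the dividing level the median as deposited was 0.24, against -0.041 over all protein-coding genes above it. Over AQP4, AQP7 and AQP9 it was 0.056, against 0.069 over all protein-coding genes below that level. The family median rested in part on AQP2, the gene with 2 clusters. It was 0.13 when the dimmer AQP2 cluster stood for the gene.

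The differences were small. Past 1.5-fold lay 0 of the 12 genes, where 1.13% of all protein-coding genes, and 1.44% of those between the lowest and highest mean level of the family, lay past it in either direction. Past a log2 difference of 0.32 lay 2 genes, AQP9 and AQP12A, both higher on the compound 1 array, where 5.05% of all protein-coding genes and 7.84% of those in the level range lay past it in that direction.

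Differences on these arrays changed with signal level, which bears on a dim family. Genes in the lowest decile of mean level had a median difference of 0.084, and those in the highest decile -0.079. The 5766 protein-coding genes between the mean levels of AQP4 and AQP2 had a median difference of 0.033, and 55.7% of them were higher on the compound 1 array. Each aquaporin was therefore also placed among the 500 protein-coding genes nearest to it in mean level. Of the 12 genes 8 lay above the middle of their neighbours and 4 lay above the 90th percentile, and the percentiles ran from 27.2 for AQP1 to 98.6 for AQP12A with a median of 86.6. Among the 4 is AQP2, at percentile 96 by its brighter cluster. Its dimmer cluster, with a difference of 0.014, was not placed in this way.

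**Figure D2:**
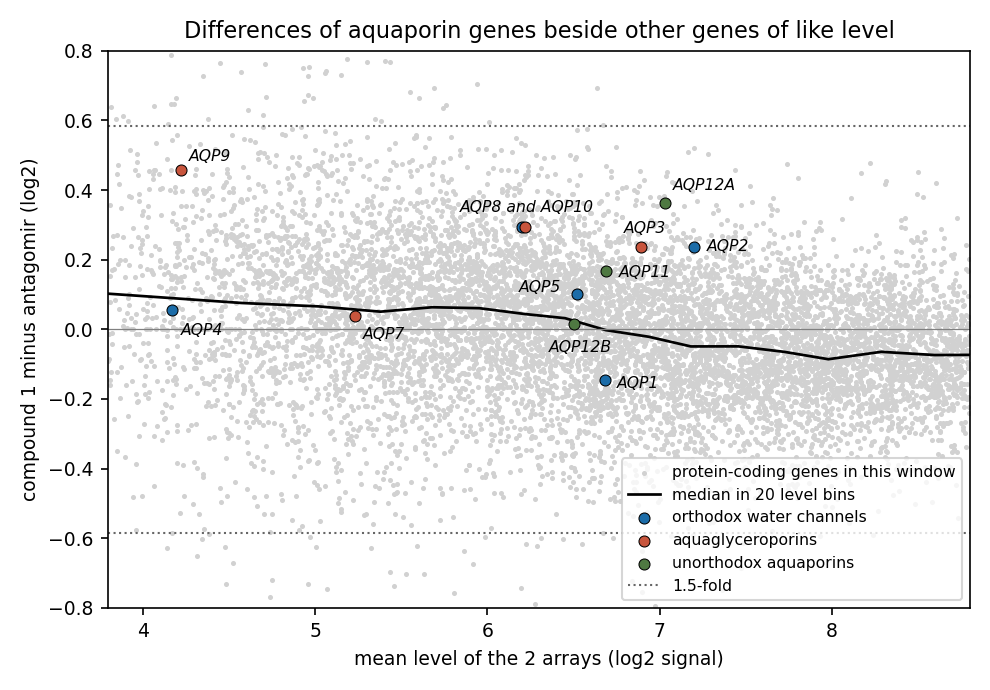
Difference between the arrays (y axis, compound 1 minus antagomir, log2) against mean level (x axis, log2 signal) for the 12 aquaporin genes (coloured by subfamily) and the 9217 protein-coding genes that fall in the plotted window (grey), with the median of 20 level bins as a black line and 1.5-fold as dotted lines. All aquaporins lie inside the dotted lines. AQP12A, AQP2 and AQP3 lie above the black line, and AQP12B, AQP4, AQP7 and AQP1 lie below it.

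Among the orthodox water channels 4 of 5 were higher on the compound 1 array as deposited (3 after cyclic loess, which turned AQP4). Of all protein-coding genes in the aquaporin level range 55.7% were higher as deposited and 50.8% after cyclic loess. AQP1, the water channel of red cells, endothelium and the proximal kidney tubule, had 6.75 on the antagomir array against 6.61 on the compound 1 array. It was the one member lower on the compound 1 array as deposited, by 1.11-fold, and its difference of -0.15 stood at percentile 27.2 of its level neighbours. It stayed negative under each scaling, between -0.18 and -0.14. AQP5, the apical channel of salivary and tear glands, read 6.47 and 6.58 in the same order. AQP8, which passes water and hydrogen peroxide, read 6.05 and 6.34, a difference of 0.29 at percentile 89.6. AQP4, the channel of astrocyte end-feet in the brain, was below the dividing level at 4.14 and 4.20, and its difference of 0.06 turned to -0.026 after cyclic loess.

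AQP2, the vasopressin-regulated channel of the collecting duct, was read by 2 clusters that differed more from each other than either did between the arrays. The brighter had 7.08 on the antagomir array against 7.32 on the compound 1 array. The dimmer had 5.91 and 5.93. The difference was 0.236 in the former and 0.014 in the latter. The clusters also differ in their place in the array's numbering, which runs by strand: in 91.6% of 11539 named clusters, at least 8 of the 10 nearest named clusters by number belong to genes of the same chromosome and strand. For the dimmer AQP2 cluster this held for 10 of 10. For the brighter one it held for 0 of 10, although all 10 lie on its chromosome, so its neighbours by number are genes of the opposite strand. Only 3.70% of named clusters had 2 or fewer such neighbours, and the other aquaporin clusters had 9 or 10, AQP11 aside, which has no strand entry here. The strand that the brighter cluster reads was not established here.

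The aquaglyceroporins were higher on the compound 1 array in 4 of 4 genes as deposited and after centring, with AQP7 turned to -0.003 by quantile normalization and to -0.028 by cyclic loess. As deposited, 55.7% of protein-coding genes in the aquaporin level range were higher. Below the dividing level, where AQP7 and AQP9 lie, 60.5% were. AQP3, the water and glycerol channel of skin and other epithelia, had 6.77 on the antagomir array against 7.01 on the compound 1 array, a 1.18-fold difference at percentile 93.2. AQP10, an intestinal glycerol channel, had 6.07 and 6.36, and its difference of 0.30 stood at percentile 90. AQP9, the glycerol channel of liver, had the widest difference of the family, 0.46 (1.37-fold), at 3.99 and 4.45. Both values lie below the dividing level, where level neighbours had a robust SD of 0.25, and the difference stood at percentile 93.8. AQP7, through which fat cells release glycerol, was at 5.21 and 5.25. Its transcribed pseudogenes were both lower on the compound 1 array as deposited, AQP7P1 with 4.78 and 4.58 and AQP7P3 with 5.62 and 5.50. How far the probes of such near copies read each other was not tested.

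The unorthodox members were higher in 3 of 3 genes (2 after centring, which turned AQP12B to -0.015). The share among protein-coding genes in the aquaporin level range was 55.7% (50.9% after centring), so a count over 3 genes says little. AQP11, which lies in the endoplasmic reticulum, had 6.61 on the antagomir array against 6.78 on the compound 1 array, a difference of 0.17 at percentile 83.6. AQP12A, a gene known from pancreatic acinar cells, had 6.85 and 7.21, a 1.29-fold difference at percentile 98.6. Its neighbour and paralog AQP12B had 6.49 and 6.50, a difference of 0.014 at percentile 47.2. The pair thus differed between the arrays by 1.29-fold in one gene and 1.01-fold in the other, and how far each cluster reads the other gene was not tested.

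The likeness of the pair shows in the 250 bases before their starts, taken from RefSeq promoters on GRCh38.p14. AQP12A lies at chr2:240691616-240691865 on the plus strand and AQP12B at chr2:240682886-240683135 on the minus strand, and 248 of the 250 aligned bases are identical (99.2%). No other pair of aquaporin promoters, taken at the first listed start of each gene, exceeded 52.9%. The stretch before AQP1, at chr7:30911603-30911852 on the plus strand, is set beside them because AQP1 differed in direction. Capitals mark ACGTG or GCGTG on either strand, the core letters of the hypoxia response element.
AQP12A: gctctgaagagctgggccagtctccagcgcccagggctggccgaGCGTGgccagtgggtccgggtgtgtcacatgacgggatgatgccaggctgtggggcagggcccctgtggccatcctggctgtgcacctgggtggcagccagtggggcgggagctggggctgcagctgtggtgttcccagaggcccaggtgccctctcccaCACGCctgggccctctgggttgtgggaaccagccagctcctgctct
AQP12B: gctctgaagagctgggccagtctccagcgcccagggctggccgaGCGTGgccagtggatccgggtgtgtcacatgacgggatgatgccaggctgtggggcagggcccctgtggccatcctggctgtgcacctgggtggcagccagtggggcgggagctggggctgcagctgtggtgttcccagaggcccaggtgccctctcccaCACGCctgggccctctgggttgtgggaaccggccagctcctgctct
AQP1: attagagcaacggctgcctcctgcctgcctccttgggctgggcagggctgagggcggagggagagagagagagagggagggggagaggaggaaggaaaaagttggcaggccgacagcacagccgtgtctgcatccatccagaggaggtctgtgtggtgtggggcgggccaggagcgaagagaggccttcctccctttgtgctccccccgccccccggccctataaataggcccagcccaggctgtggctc
Both AQP12 stretches hold 2 matches, and the AQP1 stretch holds 0. The stretches of AQP3, AQP7 and AQP9, all higher on the compound 1 array as deposited, also hold 0.

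Promoter entries were found for 11 of the 12 genes, in 14 stretches because AQP4 and AQP9 have several starts. The hypoxia core letters were in at least 1 stretch of 7 genes (AQP2, AQP4, AQP5, AQP8, AQP10, AQP12A and AQP12B), or 7 of 14 stretches, against 51.1% of the 13726 stretches of measured protein-coding genes. The letters TATAAA, the core of a promoter box that places the start, were in 4 of 14 (AQP1, AQP2, AQP3 and AQP4) against 7.96%. TGGAAA, the core letters read by the osmotic stress factor NFAT5, were in 1 of 14 (AQP4) against 15%. All were searched on both strands, and a match is no evidence of binding. In base composition the stretches ranged from 30.4% to 84.4% G and C, with a median of 55.6% against 62.8% for all. On the chromosomes, AQP2, AQP5 and AQP6 follow one another with 0 protein-coding genes between them, as do AQP7 and AQP3 and the AQP12 pair. Among these neighbours AQP3 differed by 0.236 and AQP7 by 0.038, and AQP12A by 0.363 and AQP12B by 0.014. AQP5 differed by 0.102, and the 2 AQP2 clusters by 0.236 and 0.014. Whether neighbours share their differences was not tested.

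**Figure D3:**
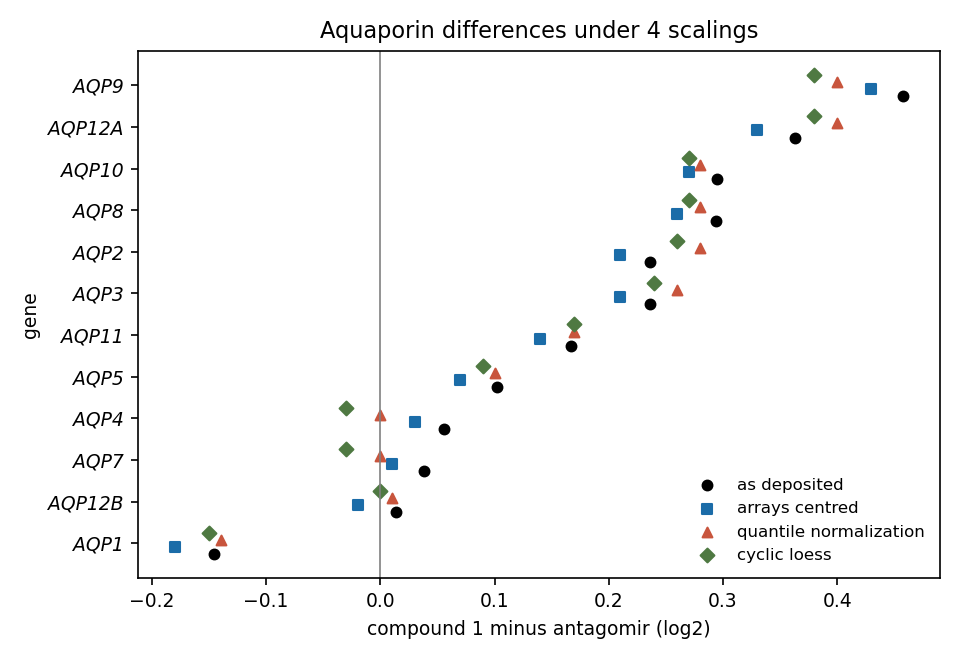
Difference between the arrays (x axis, compound 1 minus antagomir, log2) of each aquaporin gene (y axis) as deposited and after centring, quantile normalization and cyclic loess. AQP1 lies left of 0 in all 4, AQP4, AQP7 and AQP12B lie close to 0 and change sign in at least 1, and the other 8 genes lie right of 0 in all 4.

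Genes that work beside aquaporins had list medians between -0.021 and 0.066 over all measured members, most of these lists being brighter than the aquaporins. Within the aquaporin level range the median was 0.11 for glycerol genes (3 of 4 higher on the compound 1 array) and 0.071 for volume genes (4 of 4). It was 0.062 for trafficking genes (3 of 5), 0 for peroxide genes (3 of 7) and -0.021 for carbonic anhydrases (2 of 5). Of 16 measured genes of glycerol and triglyceride handling (21 listed) 10 were higher, with a median difference of 0.066 (0.036 after centring and 0.10 after quantile normalization), and 0 lay past 1.5-fold. PLIN1, a lipid droplet coat gene of fat cells, had the highest difference, at 6.0 and 6.33 (antagomir first, here and in the lists that follow). G0S2, an inhibitor of triglyceride breakdown, had both the lowest difference (-0.16) and the highest level, at 10.46 and 10.30. Of 25 genes of cell volume and osmotic stress 7 were measured, all of them kinase genes. Their median was 0.041 (0.011 after centring and 0.0049 after cyclic loess), with 5 higher. There the kinase gene WNK4, a regulator of salt transport, was highest (6.98 and 7.07). The volume-sensing kinase partners STK39 (10.38 and 10.13) and OXSR1 (10.85 and 10.65) were the 2 lower ones, OXSR1 having the highest level.

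Genes of hydrogen peroxide turnover had a median of -0.016 over 16 of 23 listed genes, with 6 higher and 9 lower. The peroxide-forming oxidase gene DUOX2 was highest, at 5.45 and 5.75 in the same order. The peroxiredoxin gene PRDX4 of the endoplasmic reticulum was lowest, at 6.68 and 6.29, and PRDX1 had the highest level (11.76 and 11.80). The list of carbonic anhydrases and acid export, measured in 9 of 17, had a median of -0.021 with 4 higher. Those measured were carbonic anhydrases and BSG, and no acid exporter itself was among them. CA14 was past 1.5-fold, at 5.11 and 4.31, both under the dividing level. Above that level all 4 were lower as deposited, where only 40.1% of all protein-coding genes above it were higher on the compound 1 array. CA12, a tumour-associated cell surface enzyme, was lowest at 8.05 and 7.74. CA13 was highest at a difference of -0.02, and BSG, the chaperone of lactate carriers, had the highest level (11.73 and 11.64). Trafficking and anchoring genes, measured in 10 of 14, had a median of -0.020 with 4 higher, which turned to 0.028 under both quantile normalization and cyclic loess. Above the dividing level MYO5B, a vesicle motor, was highest at 6.58 and 6.73, VPS35 of the retromer was lowest at 10.36 and 10.17, and the membrane linker MSN had the highest level (12.31 and 12.29). AVPR2, the vasopressin receptor that drives AQP2 to the membrane, read 6.03 and 5.96.

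The claudins, another family of small membrane proteins with tissue-restricted members, gave a closer match in signal level than the partner lists. Of 24 genes 12 were higher and 10 lower, with a median difference of 0.0086 (-0.021 after centring). The 14 claudins within the level range of the aquaporins had a median of 0.027, with 7 higher. CLDN6 had the highest difference (5.45 on the antagomir array against 5.94 on the compound 1 array) and CLDN4, an epithelial tight junction protein gene, the lowest above the dividing level (6.98 and 6.69). CLDN7 had the highest level, at 9.93 and 9.77. A median close to that of the aquaporins, 0.19 (0.13 after cyclic loess), was found in 4 named genes of potassium channel accessory proteins. These do not form the pore. All 4 were in the aquaporin level range and higher on the compound 1 array. Whether the aquaporins differ from these families was not tested, since 1 array per treatment allows no test.

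**Figure D4:**
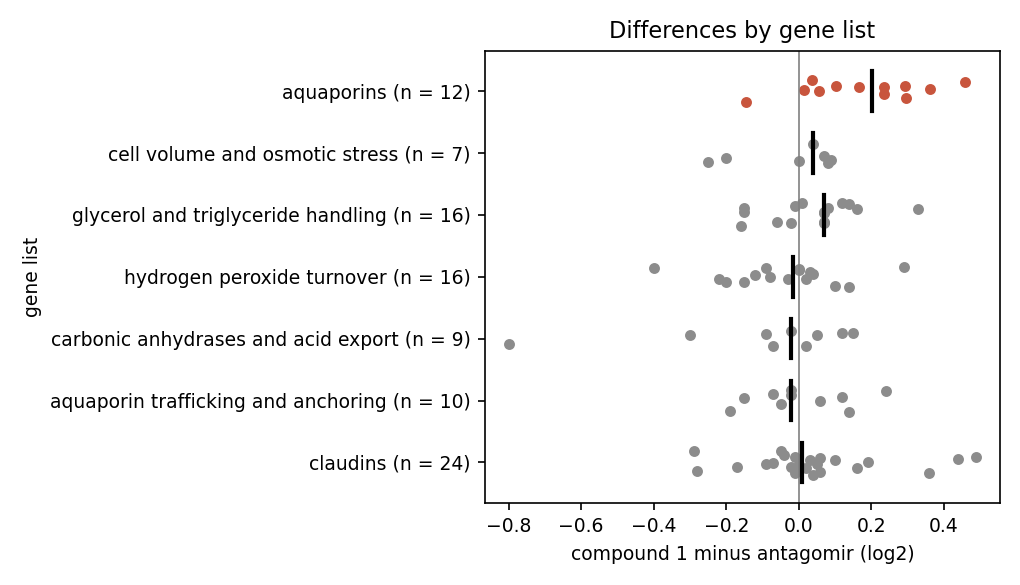
Difference between the arrays (x axis, compound 1 minus antagomir, log2) of each measured gene (points) in the aquaporin family and in 6 comparison lists (y axis, with the number of measured genes), with list medians as black bars. The aquaporin median lies at 0.20 and those of the 6 lists drawn between -0.021 and 0.066 as deposited, without matching for level. Not drawn are the 4 potassium channel accessory genes, with a median of 0.19, and the 20 solute carrier genes, with 0.067. Points are shifted vertically at random for legibility.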

How the data were processed

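RNA of 2 samples was measured on 2 Affymetrix arrays. The authors' deposited table holds 1 log2 value per cluster and array; log base 2 is taken from the range of the values, and for background correction and normalization the method is not stated in the sources used here. Biotinylated cRNA was made from 5 ug of total RNA, per the labels' protocols. Of 53617 clusters 16098 had 1 symbol in the probe table, 0 several and 37519 none; all 16098 matched RefSeq (GRCh38.p14). Most solute carrier, potassium channel and connexin genes are among those unnamed here. No scaling or filter was applied in the main setting. A gene with several clusters (487 of 11916) was represented by the brightest. Differences are compound 1 minus antagomir, folds are 2 to the power of their size, and a robust SD is the scaled median absolute deviation. The number of arrays limits the precision, and no test was possible.

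All 12 aquaporins are named; of each partner list and comparison family the highest and lowest difference above the dividing level, the highest level and every gene past 1.5-fold are named. Marker lists served as checks of level and are named only in part. Others (AVPR2, the 4 brightest markers of other cell types, the luminal breast markers) were chosen after their values were seen. Members and lists were chosen with earlier results of these data known. Alternatives were 3 scalings, 2 other cluster choices, other levels and fold thresholds, and the family without AQP2 and the AQP12 pair, the last added after seeing the data. The counting steps were tested on simulated data. Software was Python 3.11.15, numpy 2.4.6, pandas 2.3.3, matplotlib 3.10.9, R 4.3.3 and limma 3.58.1.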

Additional observations from a re-analysis of the deposited data

How the results depend on the processing

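No paired analysis was possible because a treatment is 1 array, and no replicate could be left out. The aquaporin median difference, 0.20 as deposited, lay between 0.17 and 0.22 under the 3 scalings, and was 0.24 above the dividing level, 0.17 without AQP2, AQP12A and AQP12B, 0.15 with the mean of a gene's clusters and 0.13 with the dimmer cluster, where AQP2 was at 0.014. Without those 3 genes, 8 of 9 were higher. Genes above the dividing level numbered 9 of 12, but 2 with the median over protein-coding genes and 1 at the 75th percentile of clusters; genes past the fold numbered 2 at a log2 difference of 0.32 and 0 at 2-fold. Of 60 values of single aquaporins under scaling and cluster choice, 4 changed sign: AQP12B after centring (-0.015), AQP7 after quantile normalization (-0.003) and cyclic loess (-0.028), and AQP4 after cyclic loess (-0.026). Among 40 list medians 3 changed sign: claudins after centring (-0.021) and trafficking genes after quantile normalization and cyclic loess (0.028 each). Glycerol genes moved to 0.036 after centring and 0.10 after quantile normalization, and volume genes to 0.011 after centring and 0.0049 after cyclic loess. The 4 potassium channel accessory genes moved to 0.13 after cyclic loess and 0.25 with the dimmer cluster. For the lists, the cause was not tested. Low signal limits AQP4 and AQP9 most: their level neighbours had robust SDs of 0.26 and 0.25, against 0.17 for AQP2.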

Other observations

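Further families of membrane transport were measured only in part. The 20 solute carrier genes with a name on this array had a median difference of 0.067, with 13 higher on the compound 1 array and 0 past 1.5-fold. SLC49A3 was highest, at 7.40 on the antagomir array against 7.62 on the compound 1 array, and SLC25A15, the mitochondrial ornithine carrier gene, was lowest, at 7.67 and 7.41. The highest level was that of SLC71A1, at 10.75 and 10.57. The 4 named potassium channel genes code for accessory proteins and not pores: KCNIP1 (5.11 and 5.37), KCNIP2 (5.85 and 6.0), KCNIP4 (4.49 and 4.73) and KCNE5 (6.75 and 6.81). All 4 were higher on the compound 1 array, with a median of 0.19.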
